A study of Mus musculus with 8 samples.

Results

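Mt1, Mt2 and Mt3 are the metallothionein genes in a table of ribosome-bound RNA from mouse Müller cells, a type of glia that spans the retina. They were chosen by symbol, and 3 of the 12339 genes of the table bear one of these names. Mt4, the remaining metallothionein on the same stretch of chromosome 8, is not among the 12339 genes and was not analysed here. The samples were retinas at postnatal day 14 of oxygen-induced retinopathy, a model in which high oxygen halts vessel growth in pups and the inner retina becomes hypoxic once they breathe room air again. There were 4 libraries in which Nrf2 was conditionally knocked out in Müller cells (cKO) and 4 wild-type (WT) libraries, numbered 1, 3, 4 and 5 in each group. All 8 were RiboTag pull-downs, in which a tag on the ribosomal protein Rpl22 lets ribosomes be isolated from the cells that express Cre, and all came from retinopathy at the same age. The labels name neither the Cre driver nor the deleted exon, sex or litter, and do not say whether a sample was 1 animal, so the p-values cover the spread among these samples and no more, and part of it may be technical.

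Metallothioneins are small proteins rich in cysteine that bind zinc and copper and take up oxidants. Mt1 and Mt2 are made in most tissues, and their transcription is raised by the zinc-sensing factor MTF-1, which binds metal response elements in their promoters, and also by glucocorticoids, by cytokines acting through STAT3 and in injured glia. Mt3, known as growth inhibitory factor, is made mainly in the brain and is known to respond little to metals. Nrf2 activates antioxidant genes through antioxidant response elements.

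All 3 genes lie on the plus strand of chromosome 8 (GRCm38), each with 3 exons, each holding coding sequence. Mt3 (ENSMUSG00000031760) spans 94152607 to 94154146, Mt2 (ENSMUSG00000031762) 94172664 to 94173568 and Mt1 (ENSMUSG00000031765) 94179082 to 94180327. Mt2 and Mt1 are separated by 5.51 kb, and Mt3 and Mt2 by 18.52 kb. The coding sequence holds 61 codons in Mt1, 61 in Mt2 and 68 in Mt3, the stop codon not counted. The main transcripts of Mt1 and Mt2 share no stretch of 25 bases, and their longest identical run is 20 bases. That of Mt1 and Mt3 is 27 bases. Mt2 overlaps an annotated antisense gene, Gm45774, and the deposited position of Mt2 covers both. The counting is not stated to use strand, so reads of Gm45774 may be part of the Mt2 value.

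The promoter windows are shown because Mt1 and Mt2, but not Mt3, passed the test within pairs described below. Each window runs from 250 bases before to 50 bases from the RefSeq start (GRCm38.p6, plus strand), at chr8:94178839-94179138 for Mt1, chr8:94172368-94172667 for Mt2 and chr8:94152357-94152656 for Mt3. Capitals mark matches on either strand to the core of the metal response element, TGCACNC or TGCGCNC.
Mt1: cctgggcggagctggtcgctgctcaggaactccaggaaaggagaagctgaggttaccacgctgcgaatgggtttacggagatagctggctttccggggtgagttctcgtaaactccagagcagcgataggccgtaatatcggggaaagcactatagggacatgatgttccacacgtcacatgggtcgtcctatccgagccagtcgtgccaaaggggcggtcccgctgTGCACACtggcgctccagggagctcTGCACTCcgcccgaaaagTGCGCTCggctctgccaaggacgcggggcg
Mt2: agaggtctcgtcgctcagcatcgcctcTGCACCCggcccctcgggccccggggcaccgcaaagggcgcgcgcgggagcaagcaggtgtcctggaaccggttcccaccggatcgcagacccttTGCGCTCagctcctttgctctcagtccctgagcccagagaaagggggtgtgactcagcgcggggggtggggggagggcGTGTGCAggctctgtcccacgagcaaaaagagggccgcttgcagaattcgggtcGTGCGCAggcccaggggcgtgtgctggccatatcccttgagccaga
Mt3: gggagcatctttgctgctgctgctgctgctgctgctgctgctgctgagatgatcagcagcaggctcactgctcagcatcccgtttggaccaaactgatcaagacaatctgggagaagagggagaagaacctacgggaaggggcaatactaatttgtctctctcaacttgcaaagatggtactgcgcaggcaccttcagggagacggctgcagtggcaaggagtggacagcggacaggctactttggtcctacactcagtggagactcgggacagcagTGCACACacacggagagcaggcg
The Mt1 window holds 3 matches, the Mt2 window 4 and the Mt3 window 1. Of 32851 mouse promoter windows of this length, 25.7% hold at least 1 such match, 1.97% hold at least as many as Mt1 and 0.517% at least as many as Mt2. The single match of Mt3 lies after the start, at positions 28 to 34. In Mt2 the matches nearest the RefSeq start lie at −50 to −44 and at 5 to 11, both on the opposite strand, and in Mt1 they lie at −23 to −17, 3 to 9 and 21 to 27. The RefSeq start of Mt2 lies before its GENCODE start at 94172664, close to the window's end at 94172667. All 4 matches of Mt2 thus lie before the GENCODE start. The antioxidant response element core, TGACNNNGC, matched once in Mt2, at −79 to −71, and in neither of the other windows, against 12.4% of all windows with a match. The hypoxia response element core, ACGTG, matched once in Mt1, at −79 to −75 on the opposite strand, against 19.6% of all windows. The STAT site TTCNNNGAA (8.3% of all windows) and the E-box CACGTG (7.15%), which contains the hypoxia core, were in none of the 3 windows. No match overlapped another. A match is only a match of letters, and no data here bear on binding. Sequence outside these windows was not searched, including the bases directly past their ends. A gene without a match here, as Mt1 and Mt3 for the antioxidant core, may thus hold one elsewhere. Positions and numbers of matches depend on the start used.

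**Figure D1:**
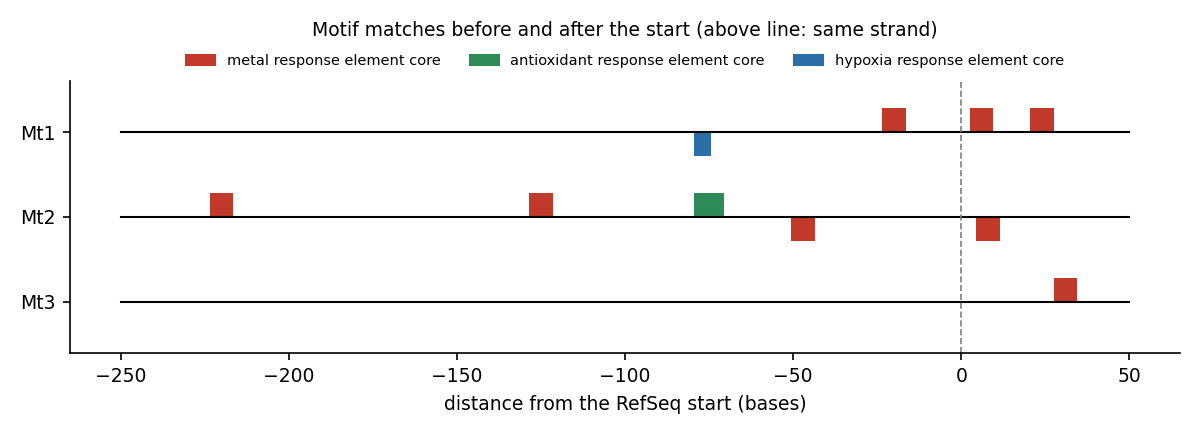
Matches to motif cores in the promoter windows of Mt1, Mt2 and Mt3, by distance in bases from the RefSeq start (dashed line), drawn above the line on the gene's own strand and below it on the opposite one. Metal response element cores number 3 in Mt1, 4 in Mt2 and 1 in Mt3.

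Values are FPKM, fragments scaled to transcript length and to the fragments of the library. Levels can thus be compared between genes as far as the length used fits the transcript. The deposited position of Mt2 spans 2821 bases, against a gene span of 905 bases, and the length used is not given. The level of Mt2 against other genes is therefore less certain than its difference between groups. Sums over all genes ran from 410581 to 448130 per library. All 12 Müller cell markers of a list were in the table, with sums of 9314 to 13534 FPKM in cKO and 9045 to 15458 FPKM in WT libraries. Rod markers (10 of 10) summed to 3485 to 5240 FPKM in cKO and 3233 to 5128 FPKM in WT libraries, and none of 9 microglial markers was in the table. Rod transcripts were thus among the RNA measured, and fewer cells of a type cannot be told apart from less RNA per cell. As a check of the labels, Nfe2l2, the gene of Nrf2, was at 10.4 to 16.5 FPKM in cKO and at 17.5 to 23.1 FPKM in WT libraries. Its groups did not overlap (exact permutation p = 0.0286, two-sided, which 70 assignments cannot go below), which held for 2.28% of all genes in this direction. Its limma adjusted p was 0.453, and 0.0219 with the replicate block described below. With 1 pair left out this was 0.0182 to 0.0846, above 0.05 without pair 1, 4 or 5. Xist, the RNA of the inactive X chromosome, was at 0.0863 FPKM in cKO 4 and 0.00505 FPKM in cKO 5, against 25.01 to 72.1 FPKM in the other 6 libraries, so these cKO libraries stand apart. Every WT library had Xist, so its near absence fell in cKO alone and is partly confounded with genotype. The labels do not give the sex.

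Mt1 and Mt2 were abundant and higher in cKO than in WT in each of the 4 pairs of equal number, while Mt3, the least abundant, showed no common direction. Without regard to pairs none of the 3 passed the test, and within pairs Mt1 and Mt2 rose. The fits were made with limma on log2(FPKM + 0.5) over all 12339 genes, with Benjamini-Hochberg adjustment and a threshold of 0.05. One fit ignored the replicate numbers and another took them as a block, since libraries of equal number deviated together.

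Mt1 was at 251, 378, 512 and 283 FPKM in cKO libraries 1, 3, 4 and 5, against 130, 235, 409 and 197 FPKM in WT libraries 1, 3, 4 and 5. The groups overlapped, but each cKO library stood above the WT library of its number, and in both groups library 1 was lowest and library 4 highest. Mt1 averaged 356 ± 117 FPKM in cKO and 243 ± 119 FPKM in WT (SD, n = 4 each). On the log2 scale cKO exceeded WT by 0.62 (SE 0.33, 1.54-fold; limma adjusted p = 0.499, exact two-sided permutation p = 0.2), a difference that did not pass against the spread between libraries. With the block the same difference had an SE of 0.10 and a 95% interval of 0.39 to 0.85 (limma adjusted p = 0.00948, and 0.0183 to 0.0376 with 1 pair left out). By pair it was 0.95, 0.68, 0.32 and 0.52 for numbers 1, 3, 4 and 5.

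Mt2 was at 140, 345, 342 and 170 FPKM in cKO libraries 1, 3, 4 and 5, against 59.7, 171, 275 and 97.0 FPKM in WT libraries 1, 3, 4 and 5. Again the groups overlapped and each cKO library was above its WT counterpart. Mt2 averaged 249 ± 109 FPKM in cKO and 151 ± 94.7 FPKM in WT (SD, n = 4 each). On the log2 scale cKO exceeded WT by 0.84 (SE 0.46, 1.79-fold; limma adjusted p = 0.502, exact two-sided permutation p = 0.2). With the block the 95% interval was 0.53 to 1.14 (limma adjusted p = 0.00897, and 0.0143 to 0.0405 with 1 pair left out). By pair it was 1.22, 1.01, 0.31 and 0.81 for numbers 1, 3, 4 and 5, so pair 1 had the largest difference and pair 4 the smallest for both genes.

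Mt3 was at 62.1, 46.1, 87.1 and 55.6 FPKM in cKO libraries 1, 3, 4 and 5, against 48.4, 51.1, 97.2 and 48.6 FPKM in WT libraries 1, 3, 4 and 5. Both groups covered nearly the same range, and library 4 was the highest in each. Mt3 averaged 62.7 ± 17.5 FPKM in cKO and 61.3 ± 23.9 FPKM in WT (SD, n = 4 each). The log2 difference was 0.06 (SE 0.25; limma adjusted p = 0.934, and 0.722 with the block), with a 95% interval with the block of −0.16 to 0.28. It was higher in cKO in 2 of 4 pairs, by 0.36 in pair 1 and 0.19 in pair 5, and was at −0.15 and −0.16 in pairs 3 and 4. The log2 difference turned to −0.11 without cKO 4, and also turned negative without WT 1, WT 3 or WT 5.

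**Figure D2:**
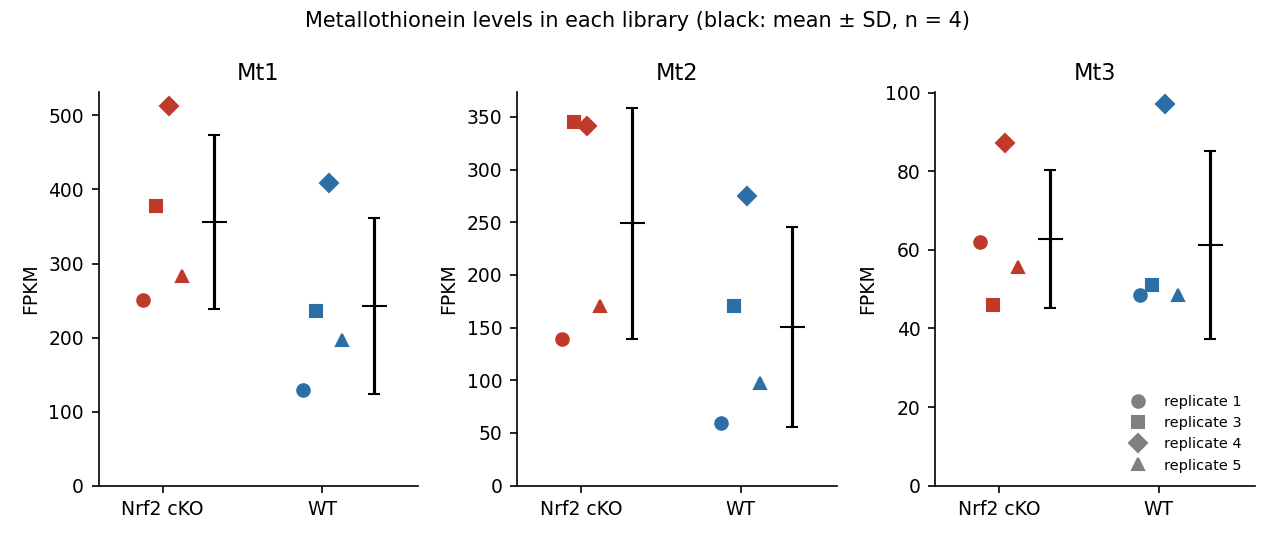
FPKM of Mt1, Mt2 and Mt3 in each of the 4 Nrf2 cKO and 4 WT libraries, with the symbol giving the replicate number and black marks the mean ± SD. For Mt1 and Mt2 each cKO symbol lies above the WT symbol of the same shape although the groups overlap, while Mt3 averages 62.7 FPKM in cKO and 61.3 FPKM in WT.

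These counts are to be read against the whole table. Without the block 0 of 12339 genes passed (limma), and 1310 had an unadjusted p under 0.05, which is 10.6% of all genes and includes none of the 3 metallothioneins. With the block 2 of the 3 rose and 0 fell, against 2.99% of the table higher (369 genes) and 7.59% lower (936 genes). The split depends on the scale: after scaling to Müller markers 64.2% of 1488 calls were higher in cKO, against 28.3% of 1305 calls on FPKM as deposited, and Mt1 and Mt2 rose on both. Among all genes 16.7% were higher in cKO in all 4 pairs, as Mt1 and Mt2 were, and 19.5% were lower in all 4, so agreement of the 4 pairs alone was common. The size of the difference was less common, since 72 genes (0.584%) had a larger rise than Mt1 and 35 (0.284%) a larger rise than Mt2, while 38.3% exceeded Mt3. The median log2 difference of all genes was 0.00. The spread of log2 values within a group was 0.58 for Mt1, 0.83 for Mt2 and 0.44 for Mt3, against a median of 0.20 over all genes. The pair differences of Mt1 and Mt2 had smaller SDs, 0.26 and 0.39.

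**Figure D3:**
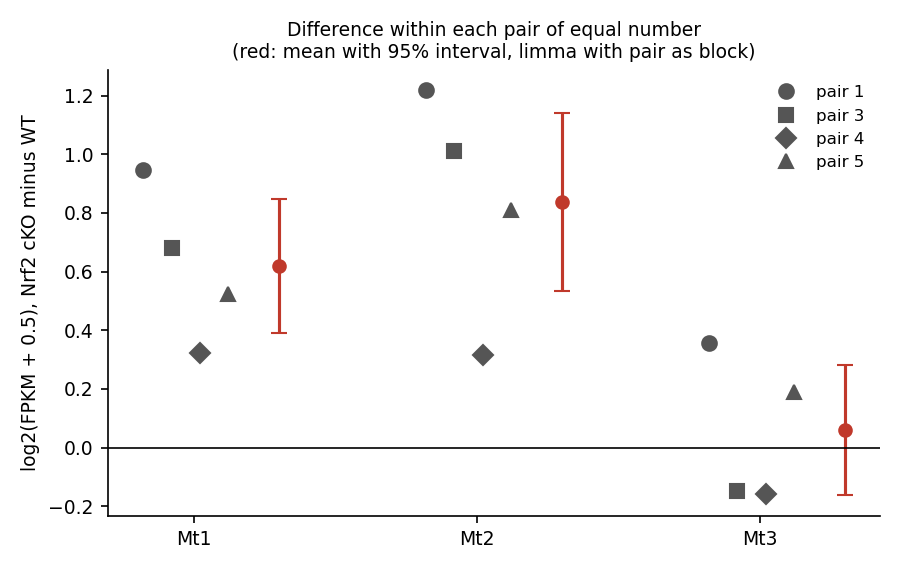
Difference in log2(FPKM + 0.5), Nrf2 cKO minus WT, within each pair of equal replicate number (grey symbols), with the mean and its 95% interval from limma with the pair as a block (red). All 4 pairs are above 0 for Mt1 (0.32 to 0.95) and Mt2 (0.31 to 1.22), and 2 of 4 for Mt3.

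In each of the 8 libraries Mt1 was the highest and Mt3 the lowest of the 3. Mt1 ranked 65th to 190th of 12339 genes in cKO libraries and 91st to 479th in WT libraries. Mt2 ranked 102nd to 498th in cKO and 167th to 1492nd in WT, and Mt3 980th to 2047th in cKO and 831st to 1995th in WT. The 3 genes together held 0.103% to 0.210% of the summed FPKM in cKO and 0.0580% to 0.176% in WT libraries. Mt3 made up 5.99% to 13.7% of the metallothionein sum in cKO and 11.2% to 20.3% in WT libraries. The ratio of Mt1 to Mt2 was 1.10 to 1.80 in cKO and 1.38 to 2.17 in WT libraries, so the lead of Mt1 over Mt2 was smallest in cKO 3.

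Whether the members differed from one another in their response was tested within libraries, as 3 contrasts. The log2 value of Mt1 minus that of Mt3 was 2.48 ± 0.43 in cKO and 1.92 ± 0.35 in WT (SD, n = 4 each; exact two-sided permutation p = 0.114, adjusted p = 0.257 over 3). Mt2 minus Mt3 was 1.91 ± 0.73 in cKO and 1.13 ± 0.63 in WT (exact permutation p = 0.171, adjusted p = 0.257), and Mt2 minus Mt1 was −0.57 ± 0.31 in cKO and −0.79 ± 0.32 in WT (exact permutation p = 0.4, adjusted p = 0.4). Both contrasts with Mt3 were higher in cKO in all 4 pairs, by 0.33 to 0.83 for Mt1 and by 0.47 to 1.16 for Mt2, and an exact sign flip over 4 pairs cannot go below p = 0.125, so it could not pass. With the pair as a block, limma on the contrasts as further rows of the table gave a difference of 0.56 for Mt1 minus Mt3 (95% interval 0.33 to 0.79) and of 0.78 for Mt2 minus Mt3 (0.48 to 1.07), both with an adjusted p of 0.00148 over 3, and both passed without each pair in turn (0.00214 to 0.00886). Mt2 minus Mt1 differed by 0.22 (0.02 to 0.42, limma adjusted p = 0.0377) and did not pass without pair 1, 3 or 5 (0.104 to 0.129). These limma tests were chosen after the data were seen and draw part of their spread from the other genes.

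Across the 8 libraries Mt1 and Mt2 followed each other closely, with a Pearson r of 0.97 in log2 values and of 0.96 with the group means taken out. For Mt1 and Mt3 these values were 0.68 and 0.75, and for Mt2 and Mt3 0.52 and 0.56. These are descriptions, and libraries of equal number are not independent of each other. Among all genes with a symbol and some spread, the 5 most like Mt1 were S100a4, Zcchc24, Phlda3, Nxn and Mt2 (r of 0.97 to 0.98). The 5 most like Mt2 were Nxn, Wfdc1, Mt1, Phlda3 and Fgfr1 (r of 0.96 to 0.98), so Nxn, nucleoredoxin, and Phlda3 were on both lists. The 5 most like Mt3 were Mgll, Nbl1, Orai3, Hcn2 and Espn (r of 0.95 to 0.97), none of them shared with the others. With the group means taken out, the genes most like Mt1 were Fkbp9, Vamp5, Tap2, Oplah and Gprc5c, and those most like Mt2 were Lrrc8c, Prpf8, Ltbp1, Ddr1 and Nxn (r of 0.976 to 0.997). Those most like Mt3 were then Eln, Pdrg1, Trmt112, Tmem141 and Mmp14 (r of 0.97 to 0.98). Of these 15, Prpf8, a splicing factor, fell with the block (−0.71, limma adjusted p = 0.00207), the direction opposite to that of Mt2, and Trmt112 and Tmem141 rose (limma adjusted p = 0.0396 and 0.0218). Over all genes 7.59% fell and 2.99% rose. With 1 pair left out Prpf8 passed in 4 of 4 fits (0.00587 to 0.0173), Tmem141 only without pair 3 (0.0321 to 0.0935) and Trmt112 in none (0.0892 to 0.129). Of the genes most alike over the 8 libraries with group means kept, S100a4 alone rose besides Mt1 and Mt2 (limma adjusted p = 0.0262 with the block). These genes were picked with the group difference included, so part of a shared direction is built into the choice. With 1 pair left out S100a4 passed only without pair 4 (0.0246 to 0.0963).

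**Figure D4:**
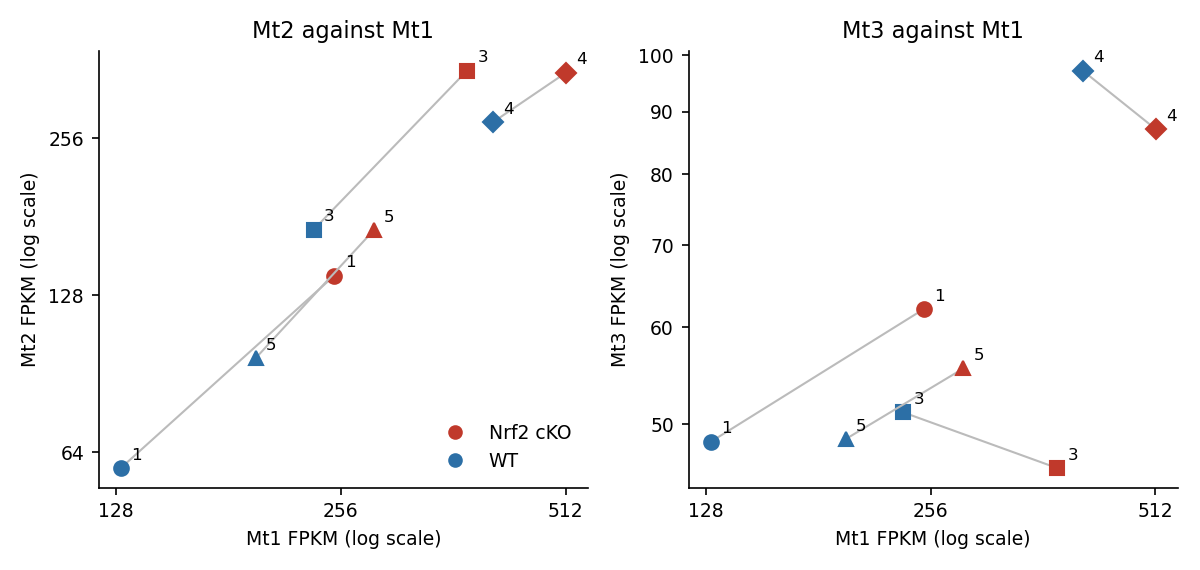
FPKM of Mt2 (left) and Mt3 (right) against that of Mt1 on log axes in the 4 Nrf2 cKO libraries (red) and the 4 WT libraries (blue), with grey lines joining libraries of equal replicate number. Mt1 and Mt2 lie along 1 line (r = 0.97), while both libraries numbered 4 stand above the rest in Mt3.

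Levels of Mt1 and Mt2 were set beside the Müller markers, whose sum, like Mt1, was highest in library 4 of each group. The marker sums were 9790, 9314, 13534 and 9684 FPKM in cKO libraries 1, 3, 4 and 5, against 9045, 10596, 15458 and 11121 FPKM in WT libraries 1, 3, 4 and 5. The sum was higher in cKO in pair 1 alone. With the block 1 of the 12 markers fell and 0 rose, against 7.59% and 2.99% of all genes. The one that fell was Aqp4 (−0.35, limma adjusted p = 0.0346). Of the 12 markers 4 had a positive log2 difference, and the median of the 12 was −0.10. The markers used for scaling thus tended lower in cKO. After scaling each library to its mean log2 level of these 12 markers, Mt1 differed by 0.70 and Mt2 by 0.92 with the block (limma adjusted p = 0.000409 and 0.000416). This scaling shifts the log2 differences of all genes alike, and their median was 0.08 after it and 0.00 before. The change in size is therefore not particular to Mt1 and Mt2. In pairs 1 and 3, in which both libraries had Xist, Mt1 differed by 0.95 and 0.68 and Mt2 by 1.22 and 1.01. In pairs 4 and 5, whose cKO libraries had almost no Xist, Mt1 differed by 0.32 and 0.52 and Mt2 by 0.31 and 0.81. With log2 Xist as a covariate beside the block, Mt1 differed by 0.87 and Mt2 by 1.21 (limma adjusted p = 0.0434 for both). With this covariate and no block, Mt1 differed by 0.47 and Mt2 by 0.83, and neither passed (limma adjusted p = 0.9999 for both).

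Some genes on the marker lists of other cells differed between the groups. A list does not show from which cells the RNA came, and Müller cells may be among them. Counts are with the block, under which 2.99% of all genes rose and 7.59% fell. Of 5 measured astrocyte markers (of 7 listed), 2 rose and 3 did not pass, with sums of 664 to 963 FPKM in cKO and 493 to 851 FPKM in WT libraries. They were Gfap, the filament protein of reactive glia (218 ± 68.0 FPKM in cKO and 91.7 ± 51.8 FPKM in WT; limma adjusted p = 0.00521 with the block and 0.435 without), and S100b (0.0467 and 0.469). With 1 pair left out Gfap passed in 4 of 4 fits (limma adjusted p of 0.00172 to 0.0344) and S100b only without pair 3 (0.0470 to 0.128). Of 7 bipolar cell markers 3 rose, with sums of 1585 to 1948 FPKM in cKO and 1259 to 1539 FPKM in WT libraries. Of 7 cone markers 1 rose and 4 fell (sums of 101 to 117 FPKM in cKO and 90.8 to 121 FPKM in WT), and of 10 rod markers 1 rose. Of 5 amacrine and horizontal cell markers 3 fell (23.3 to 36.7 FPKM in cKO and 34.8 to 55.0 FPKM in WT), as did 3 of 6 ganglion cell markers (46.4 to 66.1 FPKM in cKO and 64.2 to 85.8 FPKM in WT). The pericyte list had 2 measured members of 6, of which Rgs5 rose. Their sum was 46.8 to 59.4 FPKM in cKO and 31.0 to 40.1 FPKM in WT libraries, most of it from Rgs5. Pdgfrb, the other measured member, was at 5.65 FPKM in cKO and 6.95 FPKM in WT on average. It was higher in cKO in 0 of 4 pairs, with a log2 difference of −0.25 that did not pass (limma adjusted p = 0.183 with the block). Endothelial markers (3 of 8 measured) summed to 153 to 206 FPKM in cKO and 168 to 245 FPKM in WT, the 1 measured marker of the retinal pigment epithelium of 6 was at 2.55 to 5.40 FPKM in cKO and 1.81 to 5.58 FPKM in WT, and 0 of either list passed. No measured marker was at 0 in any library. The part of these markers in the Mt1 and Mt2 differences was not tested.

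No measured gene of the zinc system around the metallothioneins passed the test. The list of the sensor MTF-1 and the zinc exporters of the Slc30a family had 8 measured genes of 11, and the importers of the Slc39a family 9 of 14. With the block 0 of 8 and 0 of 9 passed in either direction, against 10.6% of all genes, a share at which lists so short may hold none. Without the block or under any alternative run 0 passed. Unadjusted p-values under 0.05 without the block were found for 0 of 8 and 0 of 9. Median log2 differences were −0.04 for the sensor and exporters and 0.08 for the importers. Mtf1, the sensor itself, was at 10.1 ± 0.916 FPKM in cKO and 10.5 ± 1.28 FPKM in WT (SD, n = 4 each), with a log2 difference of −0.06 and a 95% interval with the block of −0.29 to 0.18. Slc30a1, the zinc exporter of the cell membrane and a known target of MTF-1, was at 9.84, 11.8, 11.6 and 11.96 FPKM in cKO libraries 1, 3, 4 and 5, against 10.3, 11.3, 11.3 and 13.1 FPKM in WT libraries 1, 3, 4 and 5. The groups overlapped throughout, and the log2 difference was −0.02 (95% interval with the block −0.20 to 0.16; limma adjusted p = 0.898). Slc39a10, an importer known to be repressed by MTF-1, was at 7.97 ± 1.12 FPKM in cKO and 8.01 ± 0.976 FPKM in WT, a log2 difference of −0.01 (95% interval with the block −0.23 to 0.22).

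The most abundant zinc transporter of both lists, Slc30a9, was at 80.8 ± 12.6 FPKM in cKO and 72.0 ± 10.8 FPKM in WT (limma adjusted p = 0.124 with the block). It was higher in cKO in 4 of 4 pairs. Slc39a1, an importer of the cell membrane, was at 40.5, 45.2, 51.2 and 42.3 FPKM in cKO libraries 1, 3, 4 and 5, against 31.7, 40.2, 53.8 and 38.5 FPKM in WT libraries 1, 3, 4 and 5. Its order among the libraries was close to that of Mt1 (r = 0.96 over 8 libraries), while its log2 difference of 0.14 did not pass (limma adjusted p = 0.266 with the block). It stood 3 of 4 times higher in cKO, pair 4 being the exception.

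**Figure D5:**
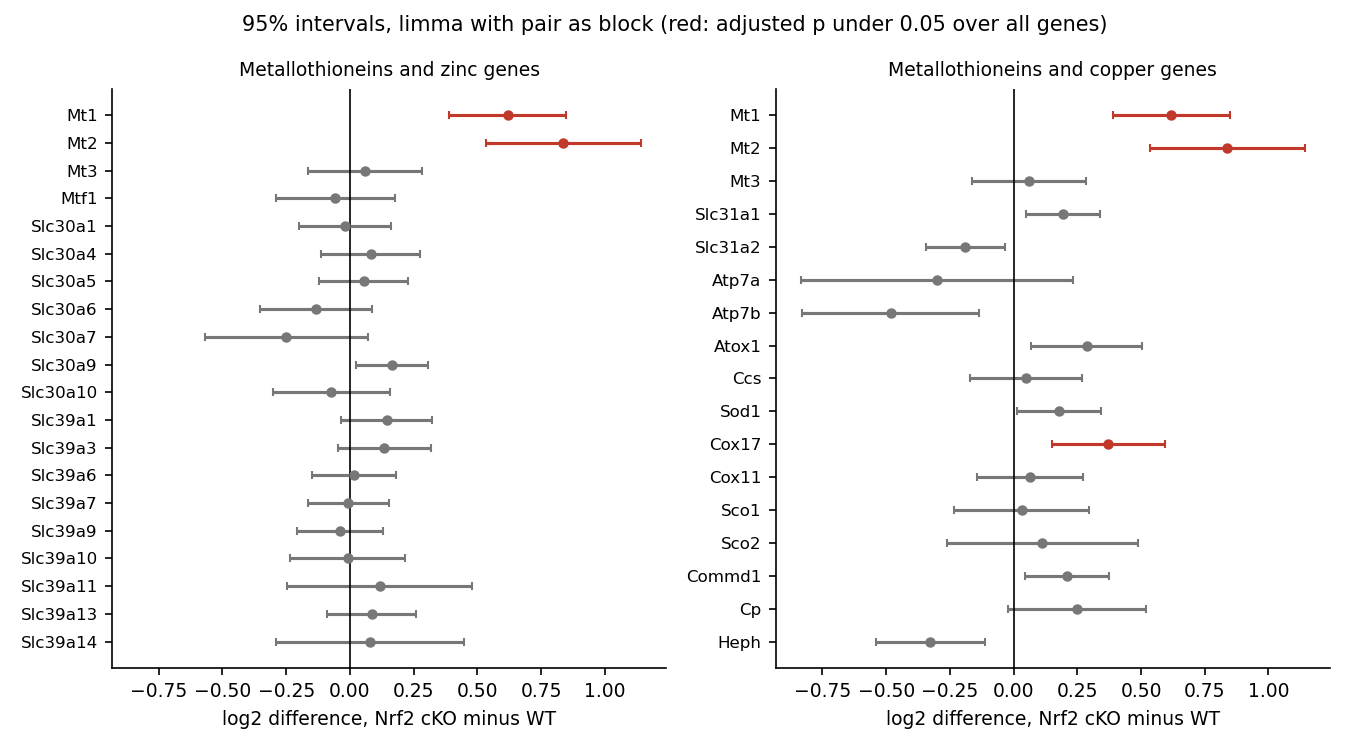
Log2 differences, Nrf2 cKO minus WT, of the metallothioneins with the zinc genes (left) and with the copper genes (right), with 95% intervals from limma with the pair as a block and genes past an adjusted p of 0.05 in red. Mt1 and Mt2 lie to the right of all zinc and copper genes shown, and Cox17 is the only other gene in red.

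Of the genes that carry and store copper, 14 of 16 listed were measured, with a median log2 difference of 0.09. With the block Cox17, the chaperone that brings copper to cytochrome c oxidase, rose (0.37, limma adjusted p = 0.0482, and 0.499 without the block), at 73.5 ± 16.5 FPKM in cKO and 56.5 ± 13.0 FPKM in WT (SD, n = 4 each), and 13 did not pass, against 10.6% of all genes called. With 1 pair left out Cox17 passed only without pair 3 (limma adjusted p of 0.0459 to 0.148). After scaling to Müller markers, with the block, 5 of the 14 rose, Atox1, Sod1, Cox17, Commd1 and Cp, against 7.74% of all genes, a share that is itself above the 2.99% without this scaling. Slc31a1, the copper importer, was at 24.7 to 26.7 FPKM in cKO and 20.9 to 23.1 FPKM in WT libraries. Its groups did not overlap, which held for 2.06% of all genes in this direction, but its log2 difference of 0.19 did not pass (limma adjusted p = 0.0898 with the block). Atox1, a cytosolic copper chaperone, differed by 0.29 (0.0937) and Sod1, the copper and zinc superoxide dismutase, by 0.18 (0.146), both as limma adjusted p with the block and both higher in cKO in 4 of 4 pairs. The copper pumps Atp7a and Atp7b differed by −0.30 and −0.48, and the ferroxidase ceruloplasmin, Cp, by 0.25, at 220 ± 69.3 FPKM in cKO and 184 ± 49.4 FPKM in WT, none of which passed. Cp was higher in cKO in 2 of 4 pairs.

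The other known inputs to Mt1 and Mt2 were described by a list each. Of 9 measured genes of the glucocorticoid receptor and its targets (of 11), 0 passed with the block, against 10.6% of all genes, a share at which so short a list may hold none, and their median log2 difference was 0.01. The receptor Nr3c1 was at 18.6 ± 1.19 FPKM in cKO and 19.0 ± 2.28 FPKM in WT, and Per1, a clock gene and target with the smallest p of the list, at 12.5 ± 0.887 FPKM in cKO and 14.2 ± 1.57 FPKM in WT (SD, n = 4 each; limma adjusted p = 0.252 with the block). Of 11 measured genes of gp130 and STAT3 signalling (of 15), 0 rose and 1 fell with the block, against 2.99% and 7.59% of all genes, so the count is near that of the table, and the median was 0.13. The gene that fell was Lifr, the receptor of leukemia inhibitory factor, at 8.87 ± 3.10 FPKM in cKO and 12.1 ± 3.98 FPKM in WT (−0.43, limma adjusted p = 0.0147, and 0.552 without the block). Lifr did not pass after scaling to Müller markers with the block, where Cebpd and Junb rose instead, against 7.74% of all genes. Without this scaling Junb was at 8.52 ± 1.32 FPKM in cKO and 6.13 ± 2.53 FPKM in WT and did not pass (limma adjusted p = 0.115 with the block). With 1 pair left out Lifr passed only without pair 5 (limma adjusted p of 0.0377 to 0.0758). Stat3 was at 32.9 ± 9.01 FPKM in cKO and 28.3 ± 2.96 FPKM in WT, with cKO 3 the highest library at 45.9 FPKM. Cebpd, an acute-phase transcription factor induced through STAT3, was at 9.05, 23.0, 14.6 and 8.15 FPKM in cKO libraries 1, 3, 4 and 5, against 4.41, 6.76, 13.3 and 6.31 FPKM in WT libraries 1, 3, 4 and 5. It was higher in cKO in 4 of 4 pairs, with a log2 difference of 0.78 that did not pass (limma adjusted p = 0.0699 with the block).

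The neighbouring genes described here gave no common direction. Measured genes within 250 kb of Mt1 that are described here, 6 besides the metallothioneins, had log2 differences of −0.42 to 0.23. Of these, Bbs2, a gene of the cilium, fell with the block (−0.42, limma adjusted p = 0.0254, and 0.0344 to 0.0918 with 1 pair left out, under 0.05 only without pair 1), and Gnao1, Nudt21, Ogfod1, Nup93 and Herpud1 did not pass. Herpud1, a gene of the unfolded protein response, had the highest difference of them (0.23, limma adjusted p = 0.0854 with the block).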

How the data were processed

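Per the labels' protocols, the RNeasy Micro kit was used for RNA, and NEBNext kits for poly(A) selection and strand-specific libraries. The authors deposited 1 table of FPKM with 1 column per library. STAR and edgeR, and the builds GRCm38 and mm10, are named in the submitters' processing notes with neither version nor role. How reads were counted, with which strand setting and gene filter, is not given in the sources used here. The lowest mean of a gene over the 8 libraries was 2.0006 FPKM, and genes of lower level were not analysed here. Fragments per library are unknown, so no counting interval was computed.

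Genes were tested with limma 3.58.1 in R 4.3.3 (lmFit, eBayes with a trend) on log2(FPKM + 0.5), two-sided, cKO minus WT, with Benjamini-Hochberg adjustment over 12339 genes. Fold changes are on that scale. Exact tests used all 70 assignments of the group labels. After removal of the group means, libraries of equal number correlated at 0.26 to 0.59 across genes and those of unequal number at −0.48 to 0.21, and 8 of 8 libraries correlated best with the one of their own number. By a rule of 0.1 for every pair the numbers paired the samples, so the fit with a block (3 residual degrees of freedom, against 6) is given beside the other.

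The members and lists were chosen with earlier results of these data known. Named genes were the members, Nfe2l2, genes of the zinc and copper lists, up to 4 genes with the smallest p of the other process lists, measured genes within 250 kb of Mt1 (1 is not reported here), and for each member the 5 genes with the highest r, with an SD over libraries of at least 0.2, without clone names. Nr3c1, Stat3 and the marker genes named were chosen after their values were seen. Gene positions are from GENCODE M21 (12327 of 12339 IDs matched), and promoters from RefSeq on GRCm38.p6 (3 of 3 members matched). Alternatives were other pseudocounts, filters, scalings, library weights, eBayes without a trend and leaving out libraries or pairs. Marker scaling, the Xist covariate, libraries with Xist alone, limma on the contrasts between members (eBayes without a trend) and combinations with the block were added after the data were seen.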

Additional observations from a re-analysis of the deposited data

Results flagged for a closer look

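Among 55 genes (the members, Nfe2l2 and the process lists), each group of 4 libraries was examined for a library whose gap to its nearest neighbour filled most of the group's range, and 11 of 110 groups were found, where chance gives about 1 in 20.

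Mt3 in WT 4 was at 97.2 FPKM, against 48.4 to 51.1 FPKM in the other WT libraries. Mt1 and Mt2 were also highest in WT 4 among WT libraries, without passing this test. The other genes with WT 4 apart were Dusp1, at 11.9 FPKM against 8.15 to 8.68 FPKM, and Cebpb, at 4.41 FPKM against 1.63 to 1.88 FPKM. Slc30a1 in cKO 1 was at 9.84 FPKM, below 11.6 to 11.96 FPKM in the other cKO libraries. Slc30a4 in cKO 5 was at 12.7 FPKM, against 10.3 to 10.7 FPKM, and Sco1 in cKO 5 at 7.60 FPKM, against 5.49 to 5.66 FPKM. Atp7b in cKO 3 was at 3.77 FPKM, against 1.87 to 2.07 FPKM, and Jak1 in cKO 3 at 33.4 FPKM, against 30.0 to 30.1 FPKM. Heph in cKO 4 was at 10.2 FPKM, against 7.03 to 7.52 FPKM. Slc31a2 in WT 5 was at 24.1 FPKM, below 28.7 to 29.6 FPKM, and Cish in WT 1 at 4.00045 FPKM, above 3.12 to 3.24 FPKM.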

How the results depend on the processing

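The calls of Mt1 and Mt2 depend on the replicate block. Both were higher in cKO under all 36 alternatives, passed in all 15 with the block (adjusted p of 0.000409 to 0.0434 for Mt1 and 0.000416 to 0.0434 for Mt2) and in 0 of 21 without it. For Mt1, Mt2 and Nfe2l2 the differences with the block were 0.62, 0.84 and −0.50. They were 0.51, 0.71 and −0.51 without pair 1, 0.60, 0.78 and −0.60 without pair 3, 0.72, 1.01 and −0.45 without pair 4, and 0.65, 0.85 and −0.42 without pair 5. With the block and another choice they were 0.70, 0.92 and −0.42 (Müller marker scaling), 0.59, 0.81 and −0.54 (TPM), 0.57, 0.77 and −0.46 (quantile), 0.62, 0.84 and −0.50 (median of ratios, no trend or a mean of at least 5 FPKM), 0.62, 0.84 and −0.51 (pseudocount 0.1), 0.62, 0.83 and −0.48 (pseudocount 1), 0.59, 0.79 and −0.49 (library weights) and 0.87, 1.21 and −0.24 (Xist covariate). Without the block, leaving out 1 library gave 0.36 to 0.91 for Mt1 and 0.47 to 1.20 for Mt2, the lowest without WT 1 and the highest without WT 4.

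Mt3 passed nowhere and turned negative in 7 of 36 alternatives: −0.17 with the Xist covariate and −0.13 in libraries with Xist, both without the block, −0.039 with the block without pair 1, and 4 of 8 fits without 1 library, which ranged from −0.11 (without cKO 4) to 0.30 (without WT 4). The cause was not tested.

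Genes past the threshold numbered 0 in the fit without the block, 1 with library weights, the Xist covariate or libraries with Xist, and 1305 with the block. Block fits gave 402, 606, 524 and 821 without pairs 1, 3, 4 and 5, then 1488 (Müller markers), 1337 (TPM), 1064 (quantile), 880 (no trend), 1300 (median of ratios), 1285 and 1320 (pseudocounts 0.1 and 1), 1276 (mean of at least 5 FPKM), 1332 (library weights) and 73 (Xist covariate). In the same order, the zinc, copper, glucocorticoid and STAT3 lists held 2 calls with the block, 0, 1, 1 and 1 without a pair, then 7, 3, 1, 1, 2, 2, 2, 2, 1 and 2. The marker lists held 19, 9, 14, 11 and 14, then 17, 21, 16, 14, 19, 19, 19, 16, 19 and 2. Contrasts between members did not pass in exact tests without the block, and the exact sign flips, with a smallest p of 0.125 for 4 pairs and 0.25 for 3, could not pass. With limma and the block, Mt2 minus Mt1, Mt1 minus Mt3 and Mt2 minus Mt3 were 0.22, 0.56 and 0.78 and passed. Without pairs 1, 3, 4 and 5 the last of these was 0.75, 0.65, 0.88 and 0.83 and Mt1 minus Mt3 was 0.55, 0.47, 0.58 and 0.63, all of which passed, while Mt2 minus Mt1 passed without pair 4 alone, at 0.30. Filters at a mean of 0.5 or 2 FPKM removed no gene.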
